A study of Mus musculus with 72 samples.

Results

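The enzymes of sterol biosynthesis were followed through 9 of their genes, Hmgcs1, Mvd, Idi1, Fdps, Fdft1, Sqle, Cyp51, Msmo1 and Hsd17b7, in the blood of irradiated and sham-irradiated mice. The 9 were found by gene symbol on the arrays, and all 9 were among the 16098 genes that were tested. The study exposed male C57BL/6 mice to a neutron beam or to x-rays and measured RNA from blood drawn by cardiac puncture, with 1 Agilent array for each of 72 mice. The question was how the response in blood depended on the kind of radiation, the dose and the time. Day 1 held 5 controls, 6 mice given 0.25 Gy of neutrons, 6 given 1 Gy of neutrons, 6 given 1 Gy of x-rays and 5 given 4 Gy of x-rays. Day 3 held 5 controls, 6 mice at 0.25 Gy of neutrons and 5 at 1 Gy of x-rays. Day 7 held 6 controls, 5 mice at 0.25 Gy of neutrons, 6 at 1 Gy of neutrons, 5 at 1 Gy of x-rays and 6 at 4 Gy of x-rays. The mice were young adults, and globin messages were reduced in the RNA. The controls were handled like the mice of the neutron groups but with the beam off. The paper describes the groups of days 1 and 7 and not those of day 3, which were used as labelled. The neutron beam also carried a γ-ray component, so a neutron dose is not a dose of neutrons alone.

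Cholesterol is built from acetyl units. HMG-CoA synthase and the next enzymes make mevalonate, the mevalonate arm turns it into isoprenoid diphosphates, squalene is assembled from farnesyl diphosphate and closed into lanosterol, and a last series of oxidations and reductions trims lanosterol to cholesterol. Transcription of most of these genes is driven together by SREBP2, which is released from the endoplasmic reticulum when membrane sterol is low. Liver is a main site of the pathway, while nucleated blood cells, reticulocyte precursors included, run it at a lower rate, and mature red cells do not make cholesterol.

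Promoters are shown for 4 of the 9 genes. RefSeq sequence (GRCm38.p6) for the 250 bases before the start was at hand for 6 genes, and Fdps, Fdft1 and Sqle are named only. Hmgcs1 stands at the head of the pathway, and Idi1, Msmo1 and Hsd17b7 were called higher after 4 Gy of x-rays. Capitals mark CCAAT (written ATTGG on the opposite strand) and, in Hmgcs1, a match to TCACNCCAC, which is part of a sterol regulatory element.
Hmgcs1 (chr13:119690101-119690350, + strand): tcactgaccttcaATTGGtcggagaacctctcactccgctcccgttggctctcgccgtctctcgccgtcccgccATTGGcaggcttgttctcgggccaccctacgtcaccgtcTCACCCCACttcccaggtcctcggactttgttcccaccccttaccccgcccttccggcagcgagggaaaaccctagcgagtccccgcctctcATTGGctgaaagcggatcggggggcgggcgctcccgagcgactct
Idi1 (chr13:8885356-8885605, + strand): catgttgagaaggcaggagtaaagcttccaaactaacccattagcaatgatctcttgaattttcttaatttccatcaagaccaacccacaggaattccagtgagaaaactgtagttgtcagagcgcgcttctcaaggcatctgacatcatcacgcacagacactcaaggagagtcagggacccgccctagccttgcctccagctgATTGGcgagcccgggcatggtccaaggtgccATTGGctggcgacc
Msmo1 (chr8:64733579-64733828, − strand): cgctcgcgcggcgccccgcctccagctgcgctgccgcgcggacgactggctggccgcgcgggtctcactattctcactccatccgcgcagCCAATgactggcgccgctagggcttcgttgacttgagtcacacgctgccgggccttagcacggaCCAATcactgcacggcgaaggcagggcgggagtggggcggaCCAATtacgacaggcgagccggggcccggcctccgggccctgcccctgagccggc
Hsd17b7 (chr1:169969206-169969455, − strand): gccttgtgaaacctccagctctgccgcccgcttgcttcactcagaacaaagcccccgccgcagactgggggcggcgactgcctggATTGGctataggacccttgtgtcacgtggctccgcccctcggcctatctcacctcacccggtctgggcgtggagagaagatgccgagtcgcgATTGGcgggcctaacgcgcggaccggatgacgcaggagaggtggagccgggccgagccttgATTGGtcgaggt
CCAAT, the box bound by NF-Y, a partner of SREBP2, lay in 6 of the 6 promoters on one strand or the other, against 33.8% of 32851 promoters of the same length. Hmgcs1, Msmo1 and Hsd17b7 held 3 copies each and Idi1 and Mvd held 2, while Cyp51 held 1. The full sterol regulatory element of the LDL receptor gene was in 0 of the 6 and in 0.0731% of all promoters. The shorter TCACNCCAC was in 1 of the 6, Hmgcs1, at 137 to 129 bases before the start, and in 1.05% of all. Both strands were searched, no marked match overlapped another, and the lengths of the motifs were chosen after the matches were seen. These matches describe letters in a window and say nothing of binding.

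Levels below are log2 signals with the median of each array's detected probes set to 0, so a level of 1 is 2 times that array's median. They compare mice for 1 gene and not one gene with another, since each probe has a brightness of its own. A gene was called where limma gave p below 0.001 and a Benjamini-Hochberg adjusted p below 0.05 over all 16098 genes. The random variance test, which the study used, gave the same count of called members in each of the 19 comparisons. Hmgcs1, Idi1, Fdps, Fdft1, Sqle and Msmo1 were well above background on all 72 arrays. Cyp51 was not on 7 arrays, Hsd17b7 on 6 and Mvd on 1. For both Cyp51 and Hsd17b7, 5 of these arrays belonged to the 6 mice at 1 Gy of neutrons on day 7. On the arrays of those 6 mice 40.2% to 50.3% of spots were well above background, against 49.5% to 67.3% elsewhere. No member's spot was saturated or flagged.

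The samples carried blood cell messages, but also messages of liver cells, which differed from mouse to mouse within groups. Alb, the gene of the liver protein albumin, was well above background on 55 of 72 arrays and saturated on 5. The 17 arrays where it was not well above background were all from day 7. Of 24 hepatocyte markers on the array 9 passed the detection filter. The other 15, including Apoa1, Ttr, Fga and Cps1 as well as Alb, did not pass it. The mean level of the 24, detected or not, ran from −1.83 to 5.63 in day 1 controls and from −4.69 to 5.15 in day 3 controls. In day 7 controls it ran from −4.95 to −3.32. In whole blood RNA, fewer cells of a type and less RNA per cell cannot be told apart. The sterol enzymes are therefore given beside the level of Alb in the same mouse, and the part of liver messages in each difference was not tested except where Alb was a term of the fit.

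**Figure D1:**
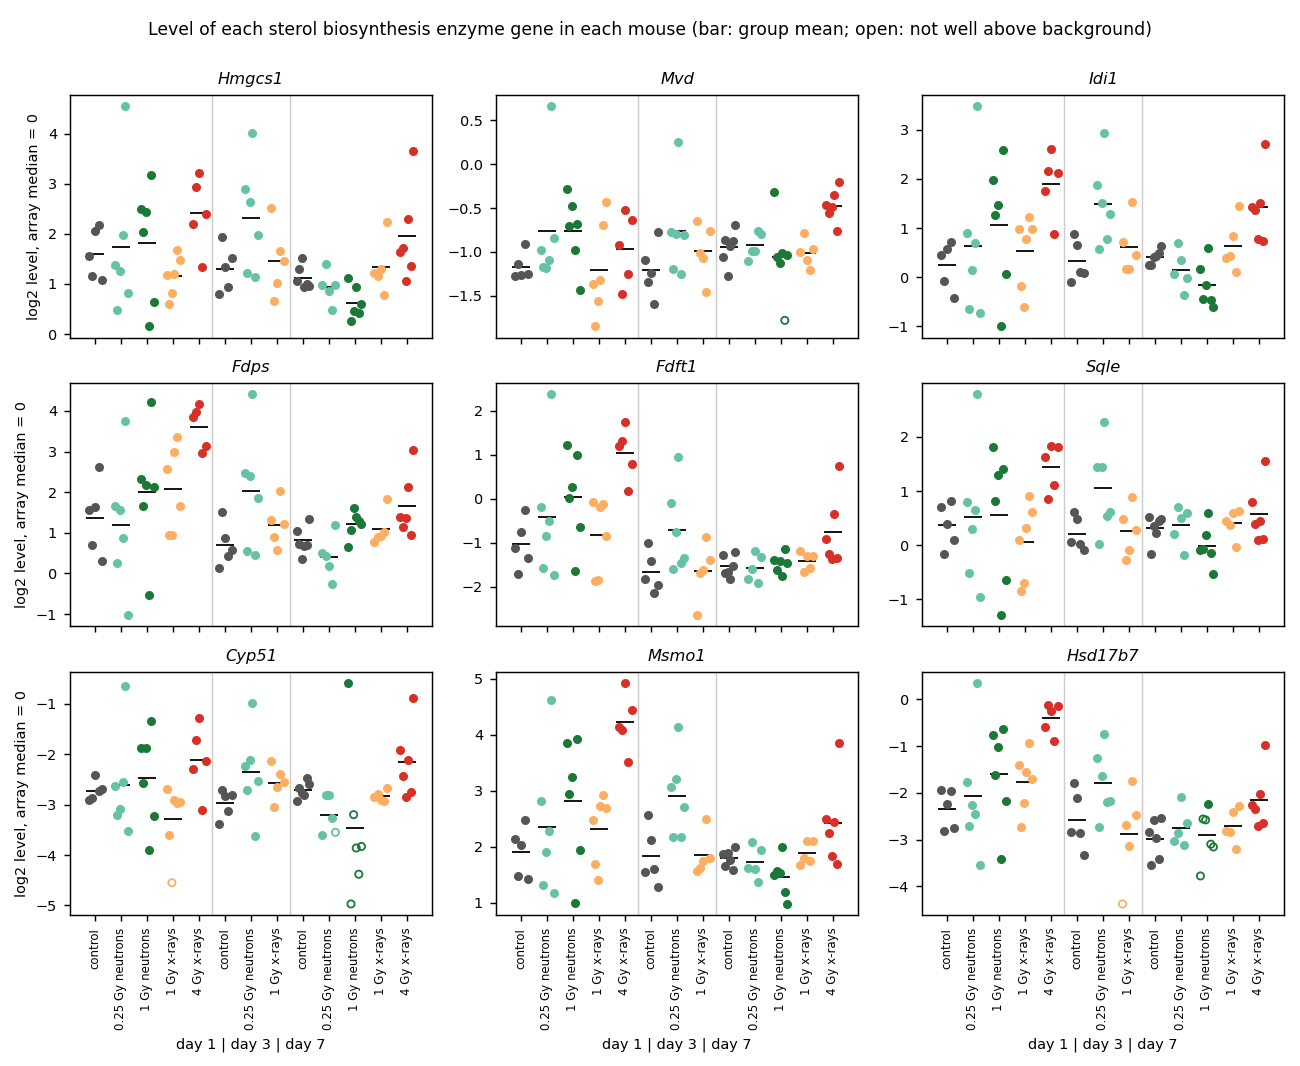
Level of each of the 9 genes in each of the 72 mice (vertical axis, log2 signal with the array median at 0) by group (horizontal axis, day 1, day 3 and day 7 from left to right), with a bar at the group mean and open points where the probe was not well above background. The 5 mice at 4 Gy of x-rays, day 1, lie above the day 1 controls in 6 panels, and single high mice stand out at 0.25 Gy of neutrons on days 1 and 3.

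X-rays at 4 Gy gave the clearest difference, on day 1. Of the 9 genes 5 were called higher than in the controls of the day, Idi1, Fdps, Fdft1, Msmo1 and Hsd17b7, by 3.15-fold to 4.96-fold, and none was called lower. Of all genes tested, 12.8% were called higher and 29.4% were called either way. Lower genes made up 56.5% of all calls, or 34.3% with the arrays centred on their spike-in controls, a scaling that moved the median of all genes from −0.09 to 0.16 and left the same 5 members called. All 9 estimates were above 0, and their median was 1.65 on the log2 scale, beside −0.09 over all genes. The groups did not overlap for 6 of the 9, the 5 called genes and Sqle, against 38.6% of all genes. Hmgcs1, Mvd, Sqle and Cyp51 were not called.

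Along the pathway, Hmgcs1, the cytosolic HMG-CoA synthase, stood at 1.56, 1.15, 2.06, 2.17 and 1.07 in the 5 controls and at 2.20, 2.93, 3.21, 1.34 and 2.40 in the 5 irradiated mice. Replicate 4 of the irradiated mice lay within the controls and the other 4 lay above them. Its log2 difference was 0.81 ± 0.35 (SE, n = 5 and 5, limma adjusted p = 0.0671). Mvd, the diphosphomevalonate decarboxylase, ran from −1.27 to −0.91 in controls and from −1.48 to −0.52 in irradiated mice, ranges that overlap. The difference was 0.20 ± 0.20 (adjusted p = 0.414).

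Idi1 interconverts the 2 isoprenoid building blocks. Its levels were 0.46, −0.07, 0.57, 0.72 and −0.42 in controls, and 1.76, 2.17, 2.60, 0.88 and 2.12 after 4 Gy. Each irradiated mouse was above each control, by little in replicate 4. Idi1 was higher by 1.65 ± 0.32 on the log2 scale (SE, 3.15-fold, adjusted p = 0.00137).

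Fdps, which joins these blocks into farnesyl diphosphate, had levels of 1.55, 0.70, 1.63, 2.61 and 0.31 in controls and of 3.84, 3.97, 4.16, 2.96 and 3.13 in irradiated mice. The highest control and the lowest irradiated mouse were close, without overlap. The difference was 2.25 ± 0.41 (4.77-fold, adjusted p = 0.000854).

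Fdft1, the squalene synthase, takes farnesyl diphosphate into the sterol branch. It stood at −1.13, −1.72, −0.76, −0.25 and −1.35 in controls and at 1.20, 1.31, 1.73, 0.18 and 0.78 after 4 Gy. Every control was below the array median and every irradiated mouse above it. The difference was 2.08 ± 0.33 (4.24-fold, adjusted p = 0.000388). Sqle, the squalene epoxidase, stood at 0.71, −0.17, 0.39, 0.82 and 0.10 in controls and at 1.63, 0.85, 1.83, 1.11 and 1.81 in irradiated mice. The groups only just parted, and with a difference of 1.08 ± 0.26 (adjusted p = 0.00436) Sqle missed the p threshold.

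Among the enzymes that trim lanosterol, Cyp51, the lanosterol demethylase, ran from −2.91 to −2.41 in controls and from −3.11 to −1.29 in irradiated mice. The ranges overlapped, and the difference was 0.62 ± 0.29 (adjusted p = 0.089). Msmo1, the methylsterol monooxygenase that acts next on the methyl groups, stood at 2.13, 1.47, 2.04, 2.48 and 1.43 in controls.
After 4 Gy Msmo1 stood at 4.14, 4.09, 4.92, 3.51 and 4.44, well clear of every control, and it had the largest change of the 9, 2.31 ± 0.28 (4.96-fold, adjusted p = 1e-04). Hsd17b7, the reductase of the sterol ketone, stood at −1.94, −2.82, −2.25, −1.96 and −2.76 in controls and at −0.59, −0.11, −0.25, −0.89 and −0.14 in irradiated mice. The gap between its groups was wider than the spread within either. The difference was 1.95 ± 0.24 (3.87-fold, adjusted p = 9.37e-05).

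Liver messages were also higher in these mice. Alb stood at 7.01, 0.88, 7.89, 8.68 and 2.58 in the controls and at 10.04, 10.48, 10.18, 9.46 and 10.03 after 4 Gy of x-rays, again without overlap. Fitted without the detection filter, Alb differed by 4.63 ± 1.33 (adjusted p = 0.0195), which is not a call, with the spot saturated on 1 of the 5 irradiated arrays and taken at its value. The mean of the 24 hepatocyte markers on the array, detected or not, ran from 6.68 to 7.89 in the irradiated mice, above the 5.63 of the highest control. Of the 9 detected markers 2 were called higher, the cytochrome Cyp2e1 (5.41 ± 1.20) and the tyrosine aminotransferase Tat (3.76 ± 0.66), and their median was 4.76. With the level of Alb as a term of the fit, 2 of the 9 enzymes were still called, Msmo1 at 1.71 and Hsd17b7 at 1.39. Idi1 then stood at 1.00, Fdps at 1.14 and Fdft1 at 1.34, no longer called. Since the Alb levels of the 2 groups did not overlap, that fit leans on the slope within groups. It also takes the relation to Alb as a straight line. Over all mice the median of Msmo1 was 1.63 below an Alb level of 7 and 2.37 between 7 and 9. Above 9, where these 5 irradiated mice lie, it was 3.89. A curved relation was not tested, so the 2 remaining calls do not show a difference beyond the liver messages. No array of 4 Gy of x-rays shared its scan date with the controls of day 1, so no within-date value exists. A fit with the date as a random block (correlation −0.087) called 6, Sqle with them, but as every date held 1 of the 2 groups it cannot take out a difference between dates.

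**Figure D2:**
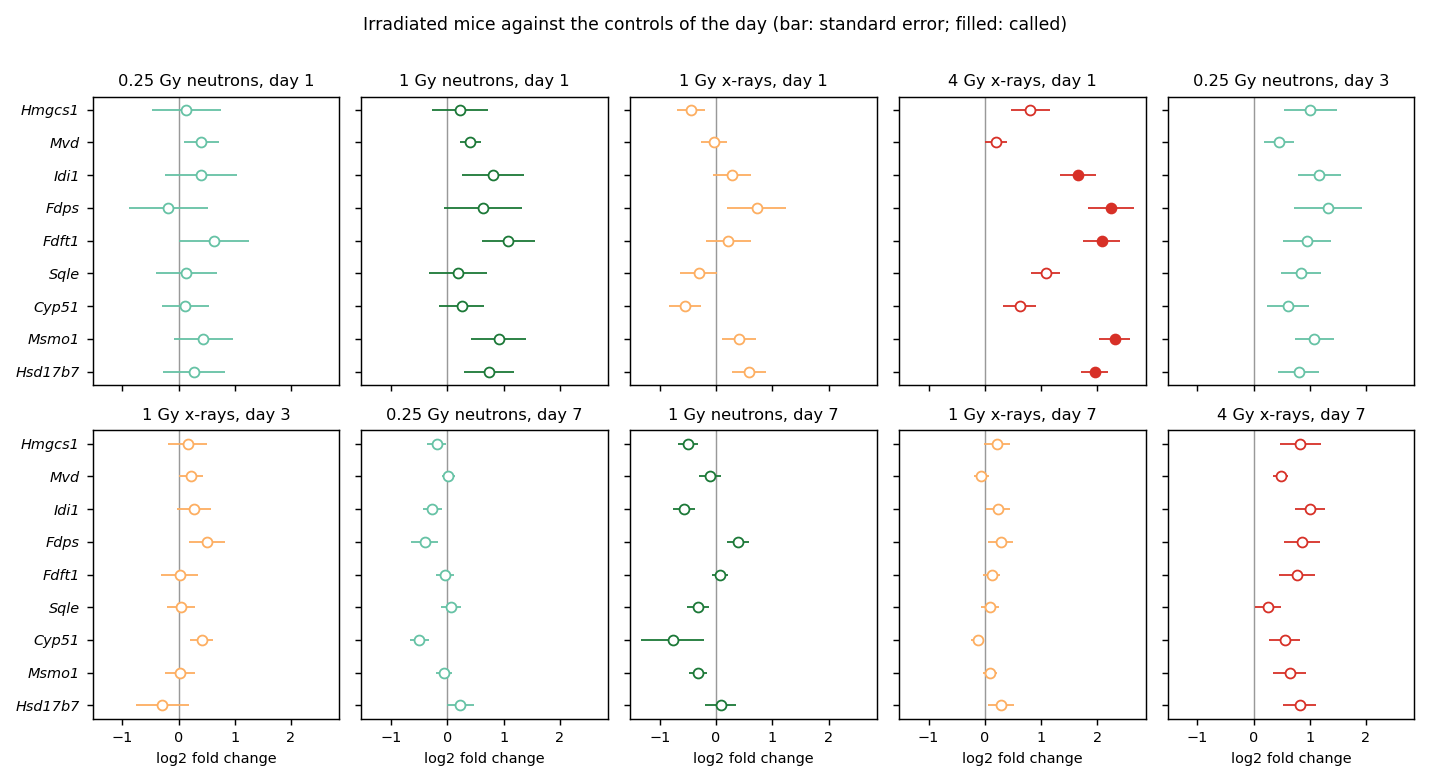
Log2 fold change of each of the 9 genes (horizontal axis) in the irradiated mice of each group against the controls of the same day, with a bar for the standard error and a filled point where the gene was called. The 5 filled points, between 1.65 and 2.31, are all at 4 Gy of x-rays on day 1.

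Genes next to these in lipid metabolism were counted by lists, which share the samples and the controls of the comparison. Of 13 other enzymes of cholesterol synthesis, 10 were called higher and 1 lower at 4 Gy on day 1, with a median of 1.49. Nsdhl, which acts between Msmo1 and Hsd17b7, was higher by 1.75 ± 0.32. Ggps1, which diverts farnesyl diphosphate to geranylgeranyl diphosphate for protein prenylation, fell by 2.00 on the log2 scale (SE 0.23).

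Of 11 genes of SREBP processing and sterol sensing, 5 were called higher and 6 were not called, with a median of 0.83. Nr1h3, the sterol receptor LXRα, was higher by 3.90 ± 0.64. Of 14 genes of uptake, transport and storage, 6 were called higher and 1 lower. Soat2, which esterifies cholesterol, was higher by 3.16 ± 0.34 and the HDL receptor Scarb1 by 1.89 ± 0.32, while Mylip, a ligase that removes the LDL receptor, fell by 1.27 (SE 0.21).

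In fatty acid synthesis, the other main branch under SREBP control, 5 of 11 genes were called higher and 1 lower. Fads2, a desaturase, was higher by 3.52 ± 0.50 and the elongase Elovl6 by 1.56 ± 0.22, and Scd2, a desaturase, fell by 0.96 (SE 0.20). Of 10 genes of bile acid synthesis on the array 3 passed the detection filter, and all 3 were called higher, Amacr by 3.31, Hsd3b7 by 3.36 and Cyp27a1 by 3.02. Blood cell markers moved at the same time. Of the 7 B cell markers 7 were called lower with a median of −4.18, of 9 T cell markers 6 were called lower and 1 higher with a median of −1.82, and of 13 erythroid markers 8 were called lower and 1 higher with a median of −3.19. No marker of neutrophils or platelets was called, of 8 in each list, nor was either of the 2 cardiac muscle markers that were detected. Of 6 monocyte markers 1 was called higher and 1 lower, and of 7 proliferation markers 1 was called higher and 4 lower. The part of these shifts in the levels of the sterol enzymes was not tested.

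**Figure D3:**
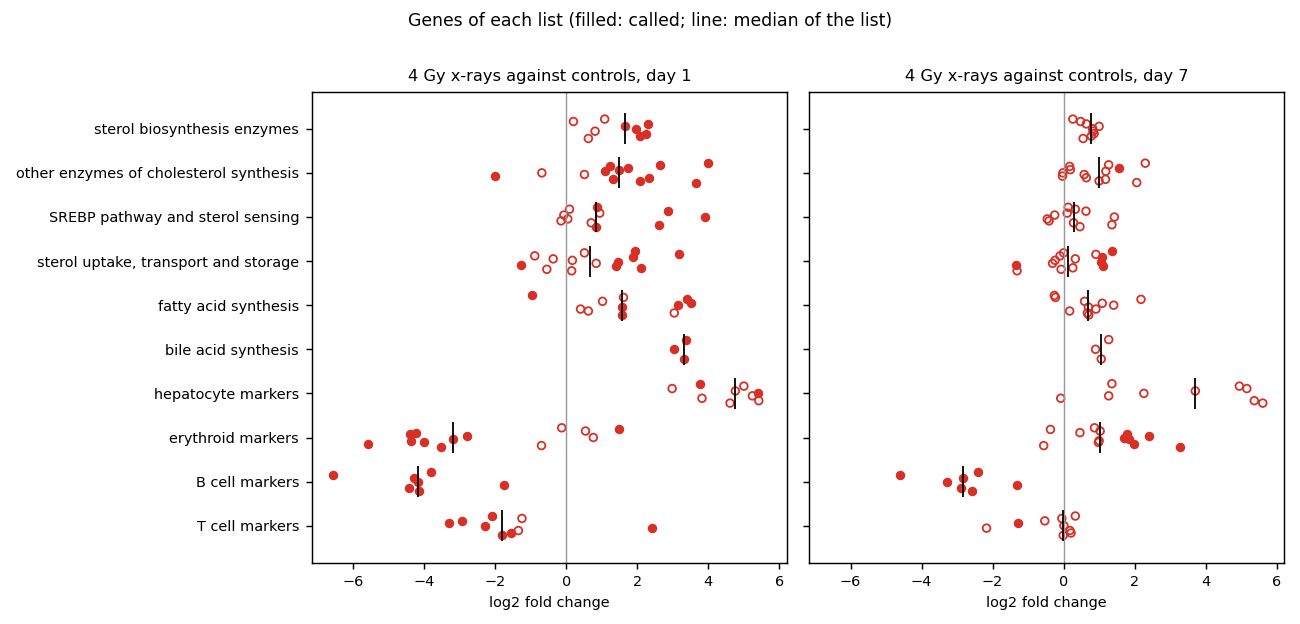
Log2 fold changes at 4 Gy of x-rays against the controls of the day (horizontal axes) on day 1 (left) and day 7 (right) for each gene of each list, filled where called, with a line at the list median. On day 1 the median of the 9 sterol biosynthesis enzymes is 1.65 and that of the hepatocyte markers 4.76, and on day 7 they are 0.78 and 3.71.

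The 2 x-ray doses were compared on day 1. Of the 9 genes 3 were called higher at 4 Gy than at 1 Gy, where 3.69% of all genes were higher and 16.1% were called either way (77% of all calls were lower, or 44.3% with spike-in centring), and all 9 estimates were above 0 with a median of 1.37. Msmo1 ran from 1.41 to 2.93 with a median of 2.58 in the 6 mice at 1 Gy, below each mouse at 4 Gy, and differed by 1.90 ± 0.32 (adjusted p = 0.00107). Fdft1 ran from −1.88 to −0.07 with a median of −0.51 at 1 Gy, again below each mouse at 4 Gy. It differed by 1.86 ± 0.40 (adjusted p = 0.00427).
Hsd17b7 ran from −2.73 to −0.94 with a median of −1.63 at 1 Gy, just short of the lowest mouse at 4 Gy, and differed by 1.36 ± 0.29 (adjusted p = 0.00407). Sqle (1.38 ± 0.33), Hmgcs1 (1.26 ± 0.32), Idi1 (1.37 ± 0.38), Fdps (1.54 ± 0.46) and Cyp51 (1.17 ± 0.37) had adjusted p-values of 0.0075 to 0.0273 with p above 0.001, and Mvd differed by 0.24 ± 0.27. Alb ran from 4.90 to 9.44 at 1 Gy, and at 4 Gy it was above this in every mouse. With Alb as a term of the fit no member was called, and Msmo1 stood at 1.16. Mice at 4 Gy and 1 Gy did not overlap in Msmo1, Fdft1 and Hsd17b7, against 21.7% of all genes. On the 1 scan date that held both doses, with 1 mouse at 4 Gy and 4 at 1 Gy, the differences were 1.44 for Msmo1, 1.51 for Fdft1 and 0.82 for Hsd17b7, and with the date as a block none was called. The call also rested on single mice, since leaving out 1 mouse at a time gave 1 to 5 calls, the 5 without replicate 4 at 4 Gy.

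At 1 Gy of x-rays no sterol enzyme was called against the controls on any of the 3 days. No array of 1 Gy of x-rays shared its scan date with the controls of its day. Scan date and exposure therefore cannot be told apart in these comparisons. On day 1, 0 of the 9 were called, against 6.47% of all genes, and the estimates ran from −0.55 for Cyp51 to 0.72 for Fdps. On day 3, 0 of 9 were called (1.61% of all genes), with estimates from −0.29 for Hsd17b7 to 0.50 for Fdps. On day 7, 0 of 9 were called (3.73% of all genes), with estimates from −0.13 for Cyp51 to 0.28 for Fdps and Hsd17b7. At an unadjusted p below 0.05 the count was 0 of 9 on each of the 3 days. The share of all genes at that looser cut was not counted, here or below. Counts of members at that cut therefore cannot be read as particular to these genes. The 1 Gy mice were nevertheless uneven. On day 1 Msmo1 was at 1.69 and 1.41 in the mice with Alb at 6.25 and 4.90, and between 2.47 and 2.93 in the 4 with Alb between 8.33 and 9.44. The 2 low mice were also the 2 of the group scanned on another date than the other 4, so Alb and scan date cannot be told apart here.

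By day 7 after 4 Gy of x-rays none of the 9 genes was called against the controls of that day, where 15.8% of all genes were. All 9 estimates were again above 0, from 0.26 for Sqle to 1.00 for Idi1, with a median of 0.78 beside −0.05 over all genes. At an unadjusted p below 0.05, 7 of the 9 differed, with no share of all genes at that cut to set beside this count. Idi1 ran from 0.74 to 2.70 with a median of 1.39 in the 6 irradiated mice and from 0.25 to 0.64 with a median of 0.42 in the 6 controls, so the groups did not overlap, as for 16.3% of all genes, and the difference was 1.00 ± 0.27 (adjusted p = 0.0134). Mvd ran from −0.76 to −0.20 with a median of −0.47 against −1.27 to −0.69 with a median of −0.90, with a slight overlap, and differed by 0.48 ± 0.13 (adjusted p = 0.0129). Hsd17b7 differed by 0.82 ± 0.29 (adjusted p = 0.0394).

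These 6 mice were split in their liver messages. Alb stood at −6.58, 7.45, −4.69, 8.21, −5.04 and 9.01, and was not well above background in the 3 lowest, while in the 6 controls it ran from −5.86 to −2.81. Replicate 6, with Alb at 9.01, was the highest of the 6 in all 9 members, at 3.66 for Hmgcs1, 2.70 for Idi1 and 3.85 for Msmo1. Without it Idi1 was called (0.75, adjusted p = 0.00582). In the 3 mice with Alb not well above background, Idi1 stood at 1.43, 0.78 and 0.74. Like the other mice of this group, they lay above each control of the day in Idi1. Msmo1 stood at 2.50, 1.84 and 1.69 in the same 3 mice, around the controls' 1.58 to 1.99. Proliferation markers were called higher in 7 of 7 and erythroid markers in 6 of 13 in these mice, and B cell markers were called lower in 7 of 7. The controls and the irradiated mice of day 7 had separate scan dates, so scan date and exposure cannot be told apart here.

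Other enzymes of cholesterol synthesis had a median of 1.00 on day 7, and 1 of 13 was called, Nsdhl at 1.57 ± 0.28. Between the doses on day 7, 0 of the 9 members were called (7.8% of all genes) and 3 had an unadjusted p below 0.05, with all 9 estimates above 0. Mvd did not overlap between 4 Gy and 1 Gy, as for 12% of all genes, and differed by 0.53 ± 0.13 (adjusted p = 0.0154). On 1 scan date that held the 6 mice at 4 Gy and 4 at 1 Gy the difference of Mvd was 0.49.

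The effect of 4 Gy on day 7 was set against that on day 1 in a fit of the 4 groups. Msmo1 was the member called, of 9, where 19.8% of all genes were called either way. Its effect was smaller on day 7 by 1.68 on the log2 scale (−1.68 ± 0.43, adjusted p = 0.00421). Fdps (−1.40 ± 0.54), Fdft1 (−1.30 ± 0.48) and Hsd17b7 (−1.13 ± 0.39) had adjusted p-values of 0.0427, 0.035 and 0.0259 and were not called, and Hmgcs1 (0.02 ± 0.53), Mvd (0.27 ± 0.23) and Cyp51 (−0.07 ± 0.42) were near 0. The call of Msmo1 was close to the threshold, and it was lost under 7 other settings and in 17 of 22 fits that left out 1 mouse. On neither day did mice at 4 Gy share a scan date with the controls of that day. Scan date and exposure therefore cannot be told apart in this difference. Without replicate 6 of 4 Gy on day 7, Fdft1 (−1.60) and Hsd17b7 (−1.36) were called beside it.

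Neutrons at 0.25 Gy gave no called member on any day. On day 1, 0 of 9 were called, as were 0.00621% of all genes, and the estimates ran from −0.18 for Fdps to 0.63 for Fdft1, none with an unadjusted p below 0.05. One mouse carried most of the spread. Replicate 5, with Alb at 10.75, had the highest level of the 6 in all 9 genes, at 4.56 for Hmgcs1, 3.49 for Idi1, 2.37 for Fdft1, 4.61 for Msmo1 and 0.35 for Hsd17b7, while the 5 others reached at most 1.97, 0.91, −0.20, 2.81 and −1.76.

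On day 3 all 9 estimates at 0.25 Gy were above 0, from 0.45 for Mvd to 1.32 for Fdps, with a median of 0.95 beside −0.05 over all genes, and 0 of 9 were called (1.54% of all genes). At an unadjusted p below 0.05, 4 of the 9 differed, again without the share of all genes at that cut. Msmo1 ran from 2.17 to 4.13 with a median of 2.88 in the 6 mice and stood at 1.55, 2.57, 2.12, 1.61 and 1.29 in the 5 controls, with overlap in the middle. The difference was 1.08 ± 0.35 (adjusted p = 0.107). Idi1 differed by 1.17 ± 0.38 (adjusted p = 0.104). Alb ran from 7.19 to 9.91 in these mice and stood at −3.83, 8.43, 7.17, 1.66 and −0.54 in the controls. Replicate 4, with the highest Alb and the 1 mouse of its group on its scan date, was the highest of its group in all 9 members, and the control with the highest Alb was the highest control in 8 of them. This did not hold in every group. The mouse with the highest Alb was the highest of its group in 6 to 9 members in 7 of the 13 groups and in 0 to 3 members in the other 6, with 0 in the controls of day 7 and 1 at 4 Gy of x-rays on day 1. On day 7, 0 of 9 were called (0.565% of all genes), with estimates from −0.50 for Cyp51, the 1 gene with an unadjusted p below 0.05, to 0.23 for Hsd17b7.

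Neutrons at 1 Gy gave estimates above 0 for all 9 genes on day 1, with 0 of 9 called where 16.3% of all genes were, and 1 of 9, Fdft1, at an unadjusted p below 0.05. Fdft1 ran from −1.64 to 1.22 with a median of 0.14 and differed by 1.08 ± 0.47 (adjusted p = 0.0834), and Msmo1 ran from 1.00 to 3.93 with a median of 3.10 and differed by 0.91 ± 0.49 (adjusted p = 0.147). Both overlapped with the controls. Replicate 4, with Alb at 1.09 beside 8.72 to 9.65 in the other 5, was the lowest of the 6 in 8 of the 9 members, all but Mvd.

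On day 7 after 1 Gy of neutrons most of the sterol enzymes lay near or below the controls. Fdps went the other way, with overlap, by 0.39 ± 0.19 (SE, limma adjusted p = 0.0971). Of the 9, 0 were called (36.2% of all genes either way), 6 estimates were below 0, and the median was −0.32. At an unadjusted p below 0.05, 2 of the 9 differed, Idi1 and Hmgcs1, again without the share of all genes at that cut. Idi1 ran from −0.60 to 0.59 with a median of −0.30, against 0.25 to 0.64 in controls, so that 1 of the 6 mice lay within the control range and 5 lay below it. It differed by −0.57 ± 0.20 (adjusted p = 0.0235). Hmgcs1 ran from 0.26 to 1.12 with a median of 0.52, against 0.94 to 1.52, and differed by −0.50 ± 0.17 (adjusted p = 0.0248). On the 1 scan date that held both groups, with 1 irradiated mouse and the 6 controls, Idi1 differed by −0.25 and Hmgcs1 by −0.01. Cyp51 was well above background in 1 of the 6 mice and Hsd17b7 in 1 of the 6, so their differences of −0.77 ± 0.56 and 0.08 ± 0.27 rest on dim spots. Calls and directions in this comparison depended on the processing. With spots not well above background set missing, Hmgcs1 at −1.03, Idi1 at −1.11 and Msmo1 at −0.87 were called lower. The median of all genes then moved from −0.05 to −0.42, and lower genes made up 73.3% of all calls, or 49.1% in the main fit. Cyp51 stood at 1.70 from the 1 irradiated mouse left, which is not a replicated difference. With the arrays centred on their spike-in controls the median of all genes moved to −1.96, and 99.3% of all calls were lower. In that fit 8 of the 9 members were called lower, Fdft1 and Hsd17b7 among them with a change of sign. Set beside 1 Gy of x-rays, 0 of 9 were called on day 1 (9.62% of all genes) and 0 on day 7 (20% of all genes), with 0 and 3 of 9 at an unadjusted p below 0.05. On day 7 Idi1 differed by −0.80 ± 0.27 (adjusted p = 0.0309) and Hmgcs1 by −0.71 ± 0.25 (adjusted p = 0.0351), and on the scan dates that held both groups Idi1 differed by −1.38 (1 mouse against 4) and −0.22 (4 against 1). The change between days in the effects of 0.25 Gy of neutrons (0.752% of all genes called), 1 Gy of neutrons (24.1%) and 1 Gy of x-rays (7.19%) was called for 0 of the 9 members in each, with 0, 2 and 0 at an unadjusted p below 0.05.

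Controls of day 7 and day 1 were compared because the study compares its time-matched controls with each other. Alb ran from −5.86 to −2.81 on day 7, where it was well above background in 2 of the 6 controls, and from 0.88 to 8.68 on day 1. Fitted without the detection filter, Alb differed by −10.05 ± 1.33 (SE, limma adjusted p = 0.00881), which is a call. Its spot was not well above background in 4 of the 6 day 7 controls, so the size rests in part on dim spots. Of the 9 sterol enzymes 0 were called, against 4.38% of all genes, and 2 had an unadjusted p below 0.05. The estimates ran from −0.64 ± 0.24 for Hsd17b7 (adjusted p = 0.086) to 0.22 ± 0.13 for Mvd, and Msmo1 differed by −0.12 ± 0.19 and Idi1 by 0.16 ± 0.20. Of the 9 detected hepatocyte markers 4 were called lower, a count that is not independent of the Alb difference in the same mice. The controls of the 2 days also had separate scan dates.

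The relation of the enzymes to Alb within groups was measured over the 72 mice after the mean of each group was subtracted, with p-values from 100000 permutations within groups, adjusted over the 9 genes, where 1e-05 is the smallest p before adjustment that these permutations can give. The plan was to give no pooled correlation if the Alb deviations fell into separate clusters. At 4 Gy of x-rays on day 7 they were split, with Alb not well above background in 3 of the 6 mice. Alb also ran widely in other groups, from 1.09 to 9.65 at 1 Gy of neutrons on day 1 and from −5.68 to 7.10 at 1 Gy of x-rays on day 7. In the controls of day 3 it ran from −3.83 to 8.43. The pooled values include all of these groups and were given against that plan. All 9 correlations were positive. Idi1 had Pearson's r = 0.52 (permutation adjusted p = 1.8e-05) and Spearman's rho = 0.65 (permutation adjusted p = 1.5e-05), Hmgcs1 0.51 and 0.59, and Msmo1 0.50 and 0.58, with the same adjusted p-values. Cyp51 had r = 0.46 and rho = 0.50, Fdps and Fdft1 r = 0.44 with rho = 0.54 and 0.51, Sqle r = 0.41 with rho = 0.50, and Hsd17b7 r = 0.40 with rho = 0.47, with permutation adjusted p-values of r from 1.8e-05 to 0.000259. Mvd was the weakest, with r = 0.24 (permutation adjusted p = 0.0124) and rho = 0.25 (permutation adjusted p = 0.0319). Without the 2 mice farthest from the median of the Alb deviations, replicates 1 and 6 of 4 Gy on day 7, r ran from 0.23 for Mvd to 0.51 for Idi1.

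By day, r was 0.37 for Mvd and 0.65 to 0.80 for the other 8 genes among the 28 mice of day 1. Among the 16 mice of day 3 it was −0.08 for Mvd and 0.41 to 0.65 for the other 8. Among the 28 mice of day 7, of which 11 had Alb well above background, it was 0.19 to 0.57 for the 9 genes. Within the 7 scan dates, of 7 to 16 mice each, r of Msmo1 ran from −0.54 to 0.82 with a median of 0.60 and was positive on 5 dates. Alb was well above background in 8 of 16 and 4 of 8 mice of the 2 dates with a negative r of Msmo1, and in 6 of 11 mice of another date, where r was 0.62. On the date with 4 of 8, r was negative for 8 of the 9 genes, down to −0.93 for Hmgcs1 and −0.95 for Sqle, and 0.44 for Fdft1. The relation of Mvd did not hold within dates, with a median of −0.22 and 3 positive dates of 7, while for the other 7 genes 5 or 6 dates were positive.

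In the plot of each gene against Alb the genes differed in shape. Below an Alb level of 7, a limit chosen after the plot was seen, 38 mice of 11 groups had Msmo1 between 0.98 and 2.50, Fdft1 between −2.65 and −0.91 and Hsd17b7 between −4.38 and −2.08. Between 7 and 9, 20 mice of 9 groups had Msmo1 between 1.91 and 3.25. Above 9, 14 mice of 6 groups had Msmo1 between 2.47 and 4.92, Fdft1 between −0.77 and 2.37 and Hsd17b7 between −1.64 and 0.35. The medians of the 3 classes were in ascending order for 8 genes, while that of Mvd was lowest in the middle class, at −1.14, and −0.69 above 9. Cyp51 had its highest mouse, at −0.59, below an Alb level of 7. The Alb spot was saturated on 5 arrays, all of day 1, and is taken at its value there. Mice above 9 were not all at the high x-ray dose, since 5 of the 14 came from 4 Gy on day 1, 1 from 4 Gy on day 7, 2 from 1 Gy of x-rays, 2 from 1 Gy of neutrons and 4 from 0.25 Gy of neutrons.

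**Figure D4:**
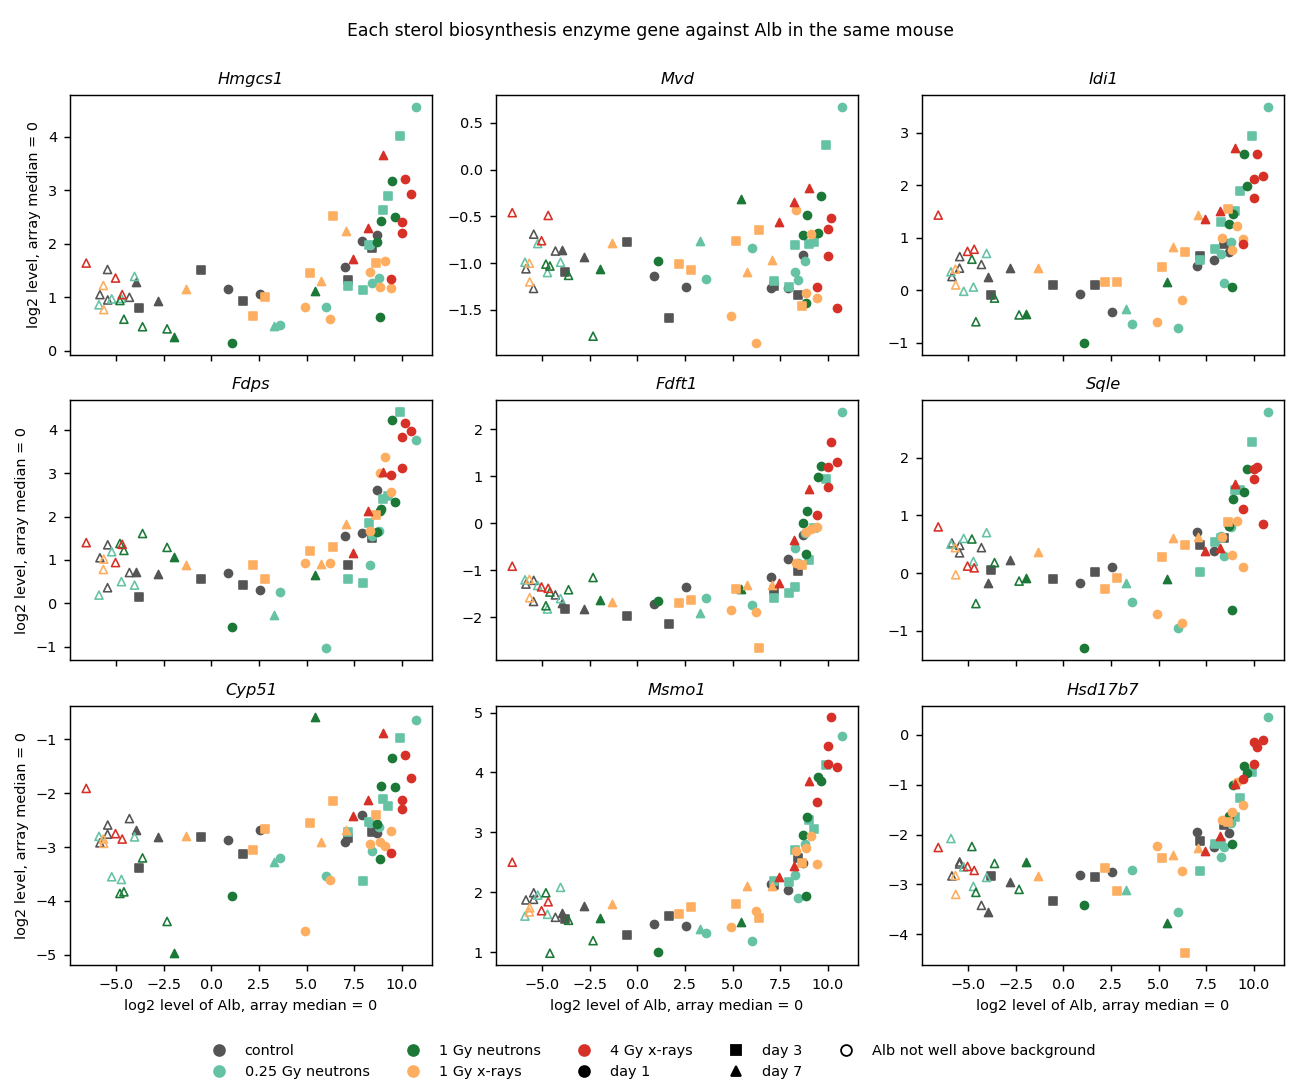
Level of each of the 9 genes (vertical axes) against the level of Alb in the same mouse (horizontal axes), both log2 signals with the array median at 0, for all 72 mice, coloured by exposure and shaped by day, with open points where Alb was not well above background. Msmo1 stays between 0.98 and 2.50 in the 38 mice with Alb below 7 and reaches 2.47 to 4.92 in the 14 with Alb above 9, in 6 groups.

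The 9 genes moved together from mouse to mouse. After group means were subtracted, the 36 correlations between pairs of members over the 72 mice ran from 0.41 for Mvd and Hsd17b7 to 0.96 for Idi1 and Msmo1. Pairs of Mvd lay between 0.41 and 0.66. The pairs share an array each, and no test was made of them. Among genes of no list, those nearest to the mean of the 9 over the 72 arrays were Hsd17b4 (r = 0.929), Ndufab1 (0.922), Lactb2 (0.913), Slc29a1 (0.911), Cyb5b (0.908), Pcyt2 (0.908), Lsr (0.905) and Qdpr (0.905). With group means subtracted they were Suox (r = 0.928), Coasy (0.927), Pcyt2 (0.919), Paox (0.919), Mthfd1 (0.918), Pgm1 (0.915), Cpt2 (0.913) and Qdpr (0.913). Pcyt2, an enzyme of phosphatidylethanolamine synthesis, and Qdpr, the dihydropteridine reductase, were in both sets.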

How the data were processed

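Per the file headers, the authors scanned 1-colour Agilent mouse arrays and extracted them with Agilent Feature Extraction 12.0.2, and the deposited intensity used was the processed signal, which is background-corrected. Its log2 was taken, flagged spots were set missing, repeat spots of 1 probe were averaged, and every array's median over the probes that passed detection was set to 0 (fewer than 25% of the 56 arrays of days 1 and 7 flagged or not well above background, 19808 probes). The brightest passing probe stood for a gene, giving 16098 genes. Symbols came from the files' accessions through RefSeq, which renamed 1403 of the 28330 probes matched. Groups were those of the labels. limma 3.58.1 (R 4.3.3) was fitted to the groups compared, 2-sided, on all genes. Scripts were tested on simulated data. Permutations used Python 3.11.15 with numpy 2.4.6.

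Named were the 9 members, Alb, up to 3 genes of each list (those called in most comparisons with controls) and the 8 genes of no list most correlated with the members' mean. The members and the lists of lipid and cell type genes were chosen with earlier results of these data known. Centring fixes each array's median, so differences are relative to it. The study's filter on variation was an alternative, as it selects on the outcome. The authors' table of processed log2 values was compared with the arrays: 12 of its 72 columns followed the array of their own sample. The other 60 followed the array of another sample, 21 of them of a sample of another group. Whether the table or the array files are out of order was not tested, and the array files were used as labelled. The table was used only as an alternative for 0.25 Gy of neutrons on day 1. Detection limits precision on dim arrays, and the number of arrays limits it throughout. Alternatives were other centrings and background corrections, filters, probe rules, blocks, Alb as a term and leaving out each mouse. Some genes that the naming rule picks from the lists are not reported here, and the counts and medians of the lists include them.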

Additional observations from a re-analysis of the deposited data

Results flagged for a closer look

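In 7 of 117 sets of a gene and a group, 1 mouse stood far from the rest of its group by Dixon's 95% limit, where chance gives about 1 in 20. Replicate 5 of 0.25 Gy of neutrons on day 1 accounted for 4 of them, with Hmgcs1 at 4.56, Mvd at 0.67, Fdft1 at 2.37 and Cyp51 at −0.64, where the next mouse of the group stood at 1.97, −0.84, −0.20 and −2.55. Mvd stood at 0.26 in replicate 4 of 0.25 Gy of neutrons on day 3, against −0.77 in the next mouse. Fdps stood at 1.84 in replicate 5 of 1 Gy of x-rays on day 7, against 1.02. Msmo1 stood at 2.49 in replicate 4 of 1 Gy of x-rays on day 3, against 1.80. In 7 of the 7 the mouse was the highest of its group in the gene and also in Alb, which stood at 10.75, 9.91, 7.10 and 8.63 in these 4 mice.

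The effect of 4 Gy of x-rays on Msmo1 differed between days by −1.68 on the log2 scale (day 7 minus day 1, limma adjusted p = 0.00421). The call was lost in 17 of 22 fits that left out 1 mouse and under several other settings. On neither day did mice at 4 Gy share a scan date with the controls of that day.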

How the results depend on the processing

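At 4 Gy of x-rays against controls on day 1 the 9 members kept their direction under every alternative, and 5 called became 3 with normexp background correction and 2 with Alb as a term. Other settings gave 4 to 6, leaving out 1 mouse 4 to 6 (4 without control replicate 2 or irradiated replicate 5, 6 without irradiated replicate 2). For 4 Gy against 1 Gy on day 1, 3 became 1 with normexp, 0 with scan date as a block and 0 with Alb as a term, and 1 to 5 without 1 mouse (1 without replicate 3 or 6 at 1 Gy or replicate 1, 2, 3 or 5 at 4 Gy, 5 without replicate 4 at 4 Gy). For 1 Gy of neutrons on day 7, 0 became 8 with spike-in centring (median of all genes −1.96, 99.3% of all calls lower), with Fdft1 at −1.84 and Hsd17b7 at −1.83. With dim spots set missing (median of all genes −0.42) 3 were called lower, and Cyp51 stood at 1.70. Against 1 Gy of x-rays on day 7 the count was 1 with normexp (Hsd17b7 at 1.11). With dim spots missing (median of all genes −0.37, 88.7% of all calls lower) 2 were called lower, and Cyp51 stood at 1.84. In both, Cyp51 rests on the 1 neutron mouse left, assumed to vary like the other mice, and is no replicated difference. The count was also 1 for 1 Gy of x-rays on day 1 with Alb as a term (Hmgcs1) and 1 for 4 against 1 Gy on day 7 with spike-in centring (Mvd). It was 7 for the change of the 1 Gy neutron effect between days with spike-in centring (median of all genes −2.54, 98.7% of all calls lower). Leaving out 1 mouse gave 0 to 1 for 1 Gy of neutrons on day 7 (Cyp51 without replicate 1, Idi1 without replicate 4), 0 to 1 for 4 Gy on day 7 (Idi1 without replicate 6), 0 to 1 for 4 against 1 Gy on day 7 (Mvd without replicate 5 at 4 Gy), 0 to 2 for the neutron change between days (without day 1 replicate 4) and 0 elsewhere. For the change of the 4 Gy effect between days, 1 became 0 with spike-in centring, quantile normalization, normexp, no detection filter, dim spots missing and all 13 groups in 1 fit, and 0 to 3 without 1 mouse (3 without day 7 replicate 6). The causes were not tested.

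In no comparison did the deviations of every pair of same-numbered mice correlate above 0.1. Pairs ran from 0.06 to 0.41 for 1 Gy of x-rays on day 7 and from −0.51 to −0.14 for 0.25 Gy of neutrons on day 3. Whether a shared number marks a pairing cannot be told from this check. With the replicate block, the count was 4 for 4 Gy on day 1, 0 for 4 against 1 Gy on day 1 and 0 for the change of the 4 Gy effect between days, and it moved no other count. The relation to Alb held for 9 genes with spike-in centring and quantile normalization, 7 with normexp (not Mvd, r = 0.09, nor Cyp51, r = 0.20) and 8 in the 54 mice with Alb well above background in groups of over 1 such mouse (not Mvd, r = 0.21), a setting added after the data were seen. Mvd failed the study's variation filter and has no value under it. Scan date could not be fitted for 5 comparisons, where all arrays of a day or each group shared 1 date. For 1 Gy of x-rays against controls on each day, and 4 Gy on day 1, no date held both groups. There the date was a random block, which cannot take out a difference between dates. The changes of the x-ray effects between days also had the date as a random block.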
